A study of Homo sapiens with 10 samples.

Results

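The human Schlafen genes SLFN5, SLFN11, SLFN12, SLFN13, SLFN12L and SLFN14 form a cluster on chromosome 17, and the accessible regions of that cluster are described here across 10 ATAC-seq libraries. ATAC-seq uses a transposase that inserts sequencing adapters into open DNA. All peaks of the 10 deposited lists that touched hg19 chr17:33560000-33900000, a window of 340 kb, were taken. They numbered 78 peaks with 108 summits and merged into 16 regions, of 35505 regions in the whole series. The window was set by position and by the gene names, not by any measured value.

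The libraries were made from CCRF-CEM, a human T lymphoblast line from a leukemia. Parental cells, labelled wild-type, express SLFN11 per the series record, and the other cells carry a knockout of that gene, whose allele is not described in the labels. Each genotype was treated with DMSO, with 100 nM prexasertib for 2, 4 or 6 h, or with 100 nM camptothecin for 4 h. Prexasertib blocks CHK1, a kinase of the replication checkpoint. Camptothecin holds topoisomerase I in its DNA-bound form. The 2, 4 and 6 h libraries are called the prexasertib time course below, and their values are always given in that order. Each of the 10 groups is 1 library, so each difference below is between single libraries and no single comparison could be tested. A fit over genotype and condition together, which would take the conditions as replicates, was not run. The sample titles carry 1 name for all knockout libraries, and nothing used here says whether it is 1 clone. The submitters state that the deposited reads of 1 library, parental cells at 4 h of prexasertib, are incomplete. Whether its peak list came from intact reads was not determined, and the main counts over libraries are also given without it.

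Schlafen proteins are known for roles in the replication stress response, in the cutting of transfer and ribosomal RNA, and in interferon responses. SLFN11 is recruited to stressed replication forks and blocks further replication, and cells that express it are known to be more sensitive to drugs that damage DNA. SLFN5 is a nuclear member linked to transcriptional repression. SLFN12 and SLFN13 act as RNA-cutting enzymes, and SLFN14 is a ribosome-associated enzyme known for its role in platelets. SLFN12L is less well studied.

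In RefSeq's gene order SLFN5 comes first, followed by SLFN11, SLFN12, SLFN13, SLFN12L and SLFN14, with pseudogenes and non-coding genes among them. The only gene start known here on hg19 is that of SLFN11, near position 33700700. The other regions are therefore named by the distance of their nearest edge from it, and were not assigned to single genes. Positions below the SLFN11 start lie on the SLFN5 side. Positions above it lie on the side of SLFN12, SLFN13, SLFN12L and SLFN14. SLFN11 is read from the minus strand, so that positions just above its start are upstream of the gene.

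The 250 bases upstream of the SLFN11 start are shown because that start is the only one of the cluster placed on a peak here. No summit was called within 250 bp upstream of the start as given on hg19. The summits of that peak region lay inside the gene or 410 to 533 bp upstream. The sequence is RefSeq's, on GRCh38.p14, chr17:35373622-35373871, minus strand, and its coordinates are not comparable with the hg19 positions of the peaks. Capitals mark matches to the motifs searched.
SLFN11 upstream: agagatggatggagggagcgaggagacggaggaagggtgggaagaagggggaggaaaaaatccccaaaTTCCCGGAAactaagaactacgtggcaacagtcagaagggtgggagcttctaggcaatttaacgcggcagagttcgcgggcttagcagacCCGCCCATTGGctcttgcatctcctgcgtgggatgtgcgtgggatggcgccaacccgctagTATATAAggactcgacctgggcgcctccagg
A TATATAA match lay 31 to 25 bases before the start, and 2.42% of the 35116 promoters in the table held this motif on either strand. The adjoining capitals are a GGGCGG match (GC box) and a CCAAT match, both on the other strand, from 92 to 82 bases before the start. These motifs were held by 42.6% and 32.0% of all promoters. A TTCNNNGAA match, the letters of a STAT site, lay 182 to 174 bases before the start and overlapped a CCGGAA match, the core of ETS sites. They were held by 6.57% and 14.5% of promoters. TGANTCA (AP-1) and the interferon-stimulated response element had no match in this stretch. Both strands were searched in all cases.

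Of the 6 Schlafen genes, 3 had an entry in the promoter table. The upstream stretch of SLFN12 held 2 CCGGAA matches, 1 CCAAT match and 1 TGANTCA match, and that of SLFN12L held 2 TTCNNNGAA matches and 1 match to the interferon-stimulated response element. G and C made up 57.6% of the bases upstream of SLFN11, 53.2% of those upstream of SLFN12 and 40.8% of those upstream of SLFN12L, against a median of 58.0% over all promoters. CG pairs numbered 15, 9 and 2, against a median of 11. A match is a run of letters and no evidence of binding.

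The 16 regions covered 9837 bp, 2.89% of the window, and the same share over the genome was not computed. Of these regions, 5 lay below the SLFN11 start, 1 held it and 10 lay above it. In all 10 lists, 4 of the 16 were called, while 32.7% of all regions in the series were. In a single list 4 were called, against 26.1% of all regions, and the other 8 appeared in 2 to 8 lists. Without the parental 4 h prexasertib list the window still held 16 regions, of which 4 were called in every remaining list and 8 only after treatment.

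Parental libraries held 6 regions of the cluster with DMSO, 5, 7 and 10 along the prexasertib time course, and 10 after camptothecin. In knockout libraries the numbers were 6 with DMSO, 9, 8 and 8 along the prexasertib time course, and 8 after camptothecin. The cluster thus made up between 0.0301% and 0.0467% of the regions of each list. Of the regions, 8 were called with DMSO in at least 1 genotype, and the other 8 only after treatment, against 39.7% of all regions. The lists differ in length, and when every list was cut to its strongest 15684 peaks, the parental libraries held 6 with DMSO, 5, 7 and 7 along the prexasertib time course, and 5 after camptothecin. The knockout libraries then held 4 with DMSO and 5 in each treated library. The higher parental camptothecin count thus did not remain at equal length.

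**Figure D1:**
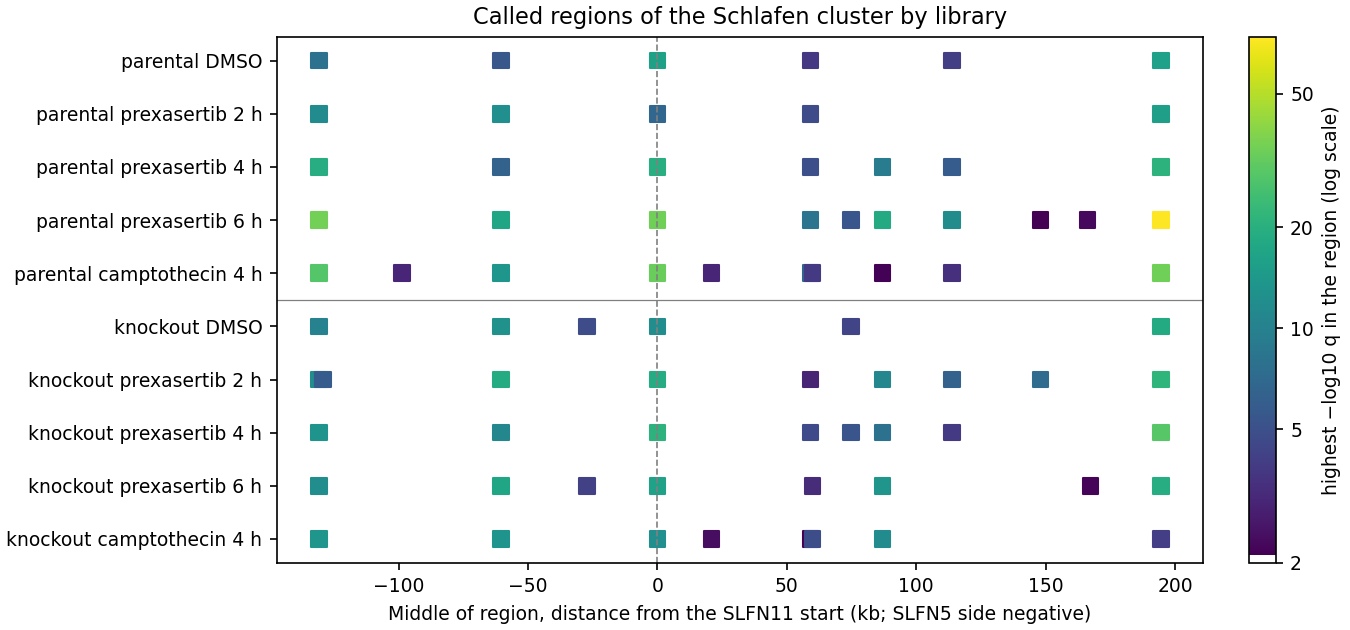
Called regions of the Schlafen cluster, by library (rows) and distance of the region's middle from the SLFN11 start in kb (x axis), coloured by the highest −log10 q of the region on a log scale. Only 4 positions are filled in all 10 rows, and the region whose nearest edge lies 86.7 kb above the start is filled in 7 treated rows and in neither DMSO row; the pairs of neighbouring regions at the left edge and about 59 kb above the start overlap in the plot.

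The SLFN11 start region, chr17:33699949-33701589, was called in all 5 parental and all 5 knockout libraries. Accessibility at a start site does not check the knockout itself, which can leave the promoter in place. A summit is given by 2 measures. The pileup is the peak caller's count over it, recovered from the deposited fold and p-value. Whether it counts fragments or read ends is not given. The summit height is the pileup divided by the genome-wide background pileup of that library, so that 1 is the background. The exact Poisson intervals at 95% beside the heights cover counting error only. That background, the measure of relative depth in these files, was 1.63 with DMSO and 1.33 to 1.52 in the treated parental libraries. In knockout cells it was 1.59 with DMSO and 1.74 or more after treatment. It thus went down with treatment in one genotype and up in the other, and its part in the height differences was not tested.

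In parental cells the pileup at the SLFN11 start was 31 with DMSO, 20, 39 and 61 along the prexasertib time course, and 64 after camptothecin. The corresponding heights were 19.0 (12.9 to 26.9), 13.5 (8.27 to 20.9), 29.4 (20.9 to 40.2), 40.0 (30.6 to 51.4) and 44.3 (34.1 to 56.5). The 2 h library was the lowest and the 6 h prexasertib and camptothecin libraries stood clear of DMSO.

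In knockout cells the pileup was 31 with DMSO, 43, 46 and 38 along the prexasertib time course, and 31 after camptothecin. The heights were 19.4 (13.2 to 27.6), 20.5 (14.8 to 27.6), 24.9 (18.2 to 33.1), 19.1 (13.5 to 26.2) and 17.8 (12.1 to 25.3) in that order. The interval of each treated knockout library overlapped that of DMSO. The parental and knockout ranges overlapped, as they did at each of the 4 cluster regions called in all lists. Over the 11546 regions called in every list with all summits recovered, 1.23% had heights that did not overlap between the genotypes, with 0.217% higher in all 5 parental libraries and 1.01% lower.

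Relative to DMSO, the parental summit at SLFN11 was 2.11 times as high after 6 h of prexasertib (1.35 to 3.36), a log2 ratio of 1.08. After camptothecin the log2 ratio was 1.22 (0.58 to 1.89), or 2.33 times. After 4 h of prexasertib the ratio was 1.55 (0.943 to 2.57), and after 2 h 0.714 (0.385 to 1.29), and both intervals include 1. Most accessible regions of the genome were also higher in these parental libraries. Among all regions called in both libraries, 66.4%, 89.1% and 90.2% were higher than with DMSO along the time course, and their median log2 ratios were 0.15, 0.59 and 0.96. With camptothecin 91.6% were higher and the median was 0.79. On chromosome 17 the medians were 0.21, 0.76, 1.28 and 1.01. Among all regions called in both libraries, 58.0% had a smaller 6 h ratio than SLFN11 and 84.1% a smaller camptothecin ratio, while only 4.78% had a smaller 2 h ratio. Set against the median of the regions called in all lists, the SLFN11 log2 ratio was -0.01 at 4 h, -0.02 at 6 h and 0.31 with camptothecin, so the 4 h and 6 h ratios at SLFN11 were close to that of the median region.

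The knockout ratios at SLFN11 were 1.05 (0.649 to 1.73), 1.28 (0.793 to 2.09) and 0.980 (0.594 to 1.63) along the prexasertib time course, and 0.917 (0.539 to 1.56) after camptothecin. Each interval includes 1. Over all regions called in both libraries the log2 medians were 0.09, 0.07, 0.02 and -0.20. The shares of these regions above DMSO were 61.4%, 58.2%, 52.0% and 27.3%.

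With DMSO, the parental and knockout libraries had the same pileup of 31 at SLFN11, a height ratio of 0.976 (0.574 to 1.66). The median over all regions called in both libraries was lower, a log2 ratio of -0.40, with 15.0% of them higher in the parental library. After 2 h of prexasertib the parental over knockout ratio at SLFN11 was 0.661 (0.368 to 1.15), and after 4 h 1.18 (0.753 to 1.85). The log2 ratio was 1.07 (0.46 to 1.69) after 6 h and 1.31 (0.67 to 1.98) after camptothecin. At those last conditions 91.1% and 95.8% of all regions called in both libraries had a smaller ratio. Set against the median region, the SLFN11 log2 ratio of parental over knockout was 0.42 with DMSO. It was -0.18, 0.16 and 0.48 along the prexasertib time course and 0.65 with camptothecin. Among all regions called in both, 17.5%, 60.0%, 79.6% and 85.8% were higher in the parental library from 2 h of prexasertib to camptothecin.

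**Figure D2:**
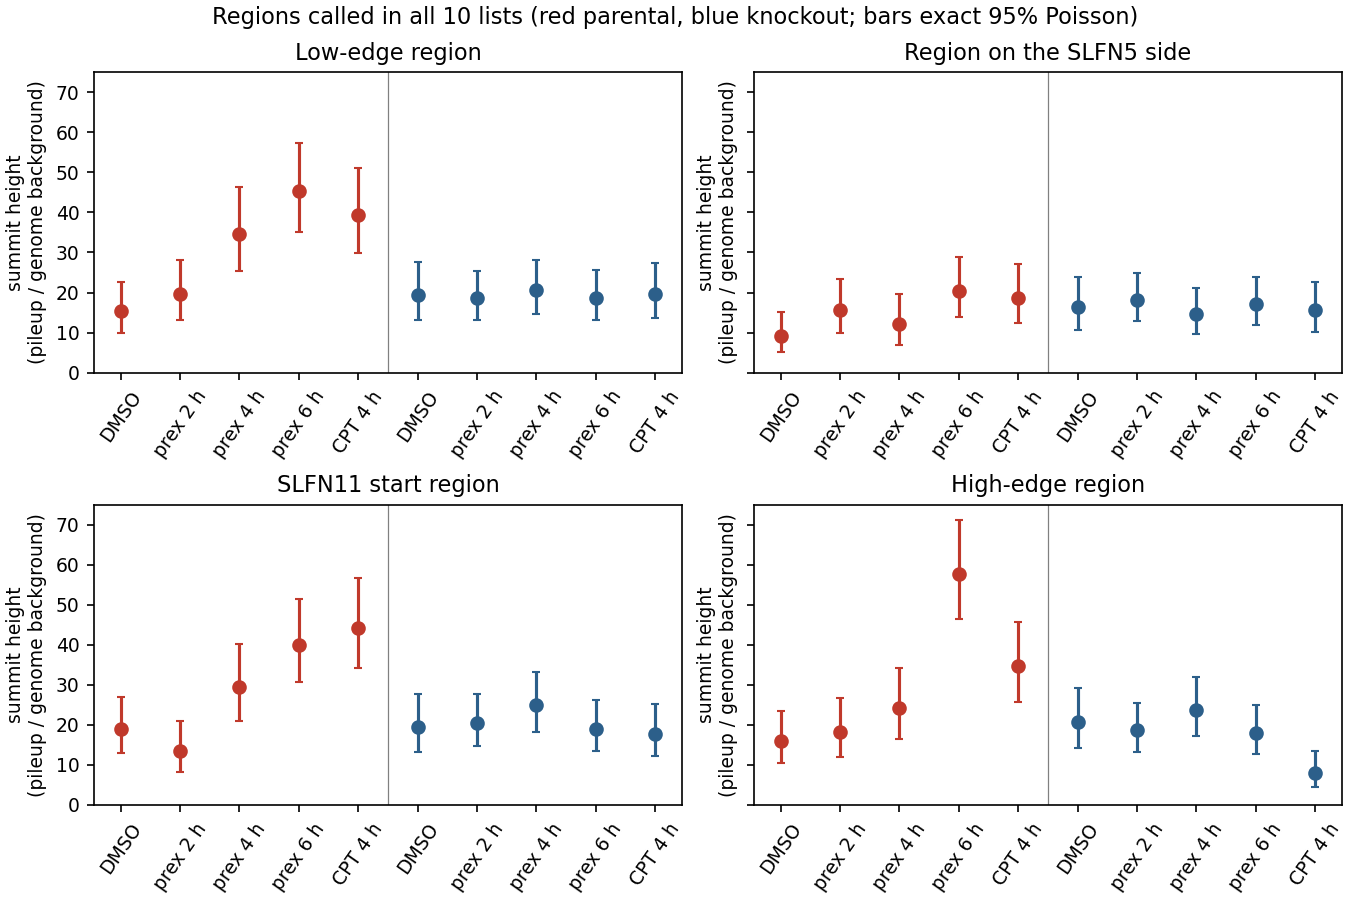
Summit height (pileup over the genome-wide background) in each library at the 4 regions called in all 10 lists, with exact 95% Poisson intervals; prex is prexasertib and CPT camptothecin. At the SLFN11 start the parental values run from 13.5 to 44.3 and the knockout values from 17.8 to 24.9, and in the high-edge panel parental 6 h prexasertib reaches 57.7.

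The shape of the SLFN11 peak also differed between libraries. Its longest peak measured 537 bp in the parental DMSO library, 1313, 1236 and 927 bp along the prexasertib time course, and 1632 bp after camptothecin. In knockout cells it measured 816 bp with DMSO, 1372, 1067 and 1390 bp along the prexasertib time course, and 750 bp after camptothecin, where a separate second peak brought the total to 965 bp. All 4 treated parental libraries had a wider peak than DMSO, by 1.73 to 3.04 times. Among the regions called in every list 36.8% were wider in all 4, and in the cluster 3 of 4 were. A widening of at least 1.5 times in all 4 was found in 4.42% of the regions called in every list. That threshold was chosen after the widths were seen. At 2 h the parental peak was 2.45 times as wide as with DMSO while its summit was not higher.

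The upstream edge of the peak differed more between libraries than the edge inside the gene. In 7 of the 10 lists, 3 parental and 4 knockout, the SLFN11 peaks reached more than 400 bp above the start. The 3 lists where they did not were both DMSO libraries, with edges 147 and 268 bp above the start, and the parental 6 h prexasertib library, with an edge at 175 bp. That library had its added width inside the gene, where its peak reached -751 bp against -389 bp with DMSO. A separate summit more than 400 bp above the start was called in 5 lists. Without the parental 4 h list the numbers are 6 lists and 4 lists of 9. It lay 496 bp above the start after 4 h of prexasertib and 471 bp above it after camptothecin in parental cells, with pileups of 18 and 32. In knockout cells it lay 533 and 410 bp above after 4 and 6 h of prexasertib, both with a pileup of 22, and 531 bp above after camptothecin, with a pileup of 16. The highest summit of each list lay close to the start itself, between -155 and -9 bp from it, inside the gene as the start is given. LOC105371933, a non-coding gene, is the next gene after SLFN11 on that side in RefSeq's order. Whether the upstream summit belongs to it was not determined. The 400 bp limit was chosen after the peaks were seen.

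**Figure D3:**
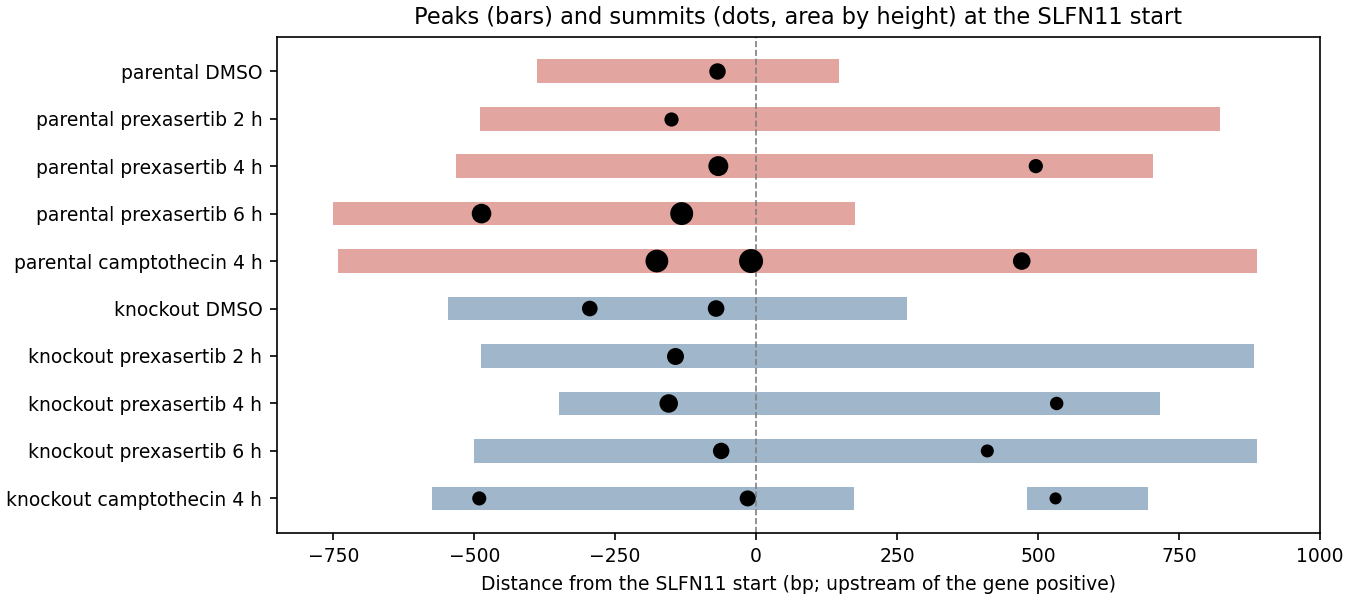
Peaks (bars) and summits (dots, area by summit height) at the SLFN11 start, by library, against distance from the start in bp, with positive values upstream of the gene. Bars reach past 400 bp in 7 treated libraries and end at 147 and 268 bp in the DMSO libraries and at 175 bp in parental cells after 6 h of prexasertib.

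On the SLFN5 side, 2 regions were called in every list. The low-edge region, chr17:33569199-33570702, lay 130.0 kb below the SLFN11 start. Its parental pileup was 25 with DMSO, 29, 46 and 69 along the prexasertib time course, and 57 after camptothecin. The heights were 15.3 (9.90 to 22.6), 19.6 (13.1 to 28.2), 34.7 (25.4 to 46.3), 45.3 (35.2 to 57.3) and 39.4 (29.9 to 51.1). All 4 treated parental libraries lay above DMSO, and the 4 h, 6 h and camptothecin libraries lay above the whole DMSO interval.

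In knockout cells the low-edge heights were 19.4 with DMSO, 18.6, 20.5 and 18.6 along the prexasertib time course, and 19.5 after camptothecin. These values were close together, and each treated over DMSO interval includes 1. In parental cells the ratio to DMSO was 2.27 at 4 h (1.36 to 3.85), 2.96 at 6 h (1.85 to 4.88) and 2.58 with camptothecin (1.58 to 4.30). Of all regions called in both libraries, 93.0%, 88.8% and 90.5% had smaller ratios in these comparisons. The parental summit was higher than the knockout summit by 1.69 times at 4 h (1.08 to 2.67), by 2.44 times at 6 h (1.61 to 3.74) and by 2.02 times with camptothecin, a log2 ratio of 1.01 (0.37 to 1.67). Its peak width ran from 823 bp in the parental DMSO library to 1365 bp in the knockout 6 h prexasertib library. Every treated library of either genotype had a wider peak here than its DMSO library, by 1.11 to 1.63 times. Of all regions called in every list, 36.8% were wider in all 4 treated parental libraries and 31.7% in all 4 treated knockout libraries. In the cluster 3 of 4 and 2 of 4 were. The share for both genotypes at once was not computed.

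The region at chr17:33639837-33640704, 60.0 kb below the SLFN11 start, was weaker. Parental pileups were 15, 23, 16, 31 and 27 from DMSO through the time course to camptothecin, and knockout pileups were 26, 38, 27, 34 and 27. The parental heights were 9.18, 15.6, 12.1, 20.3 and 18.7, and the knockout heights 16.3, 18.1, 14.6, 17.1 and 15.5. Only the parental 6 h and camptothecin ratios to DMSO had intervals above 1, at 2.21 (1.16 to 4.41) and 2.03 (1.04 to 4.11). The parental over knockout interval included 1 in all 5 conditions. The lowest value here was that of the parental DMSO library, which is the denominator of all 4 parental ratios.

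At the other end of the cluster, the high-edge region, chr17:33894695-33895630, had the highest summit of the window. It lay 194 kb above the SLFN11 start. Parental pileups were 26 with DMSO, 27, 32 and 88 along the prexasertib time course, and 50 after camptothecin. The heights were 15.9 (10.4 to 23.3), 18.3 (12.0 to 26.6), 24.1 (16.5 to 34.1), 57.7 (46.3 to 71.1) and 34.6 (25.7 to 45.6). The 6 h library stood above the other 4 parental libraries, with a −log10 q of 73.9 against 15.7 with DMSO and a deposited fold over the local background of 15.5 against 8.09.

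Knockout pileups at the high edge were 33, 39, 44 and 36 from DMSO through the time course, and 14 after camptothecin. The heights were 20.7 (14.2 to 29.1), 18.6 (13.2 to 25.4), 23.8 (17.3 to 31.9), 18.1 (12.6 to 25.0) and 8.05 (4.40 to 13.5). The camptothecin library was the lowest, and its −log10 q was 4.01 against 18.3 with DMSO.

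Relative to DMSO, the high-edge summit in parental cells was 3.63 times as high after 6 h of prexasertib (2.32 to 5.86) and 2.17 times as high after camptothecin (1.33 to 3.64). In knockout cells it was 0.389 times as high after camptothecin (0.192 to 0.747). Of the 16078 regions called in both of those knockout libraries, 0.0933% had a smaller ratio. Regions called with DMSO and lost with camptothecin, 10.8% of all 35505, are not among these. The parental over knockout ratio was 3.20 (2.15 to 4.85) after 6 h of prexasertib and 4.30 (2.34 to 8.42) after camptothecin. Of the 18109 and 15987 regions called in both libraries, 99.7% and 99.97% had smaller ratios. Regions called in the parental library only, 13.2% and 15.2% of all 35505, are not among these. At 2 and 4 h of prexasertib the parental over knockout ratios were 0.984 and 1.02, with intervals that include 1. The high-edge peak measured 235 bp with DMSO and 716 bp at 6 h in parental cells. In knockout cells its width lay between 255 bp at 4 h and 936 bp at 6 h of prexasertib. It was 474 bp with DMSO and 567 bp with camptothecin, where the peak held 2 summits, each with a pileup of 14.

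**Figure D4:**
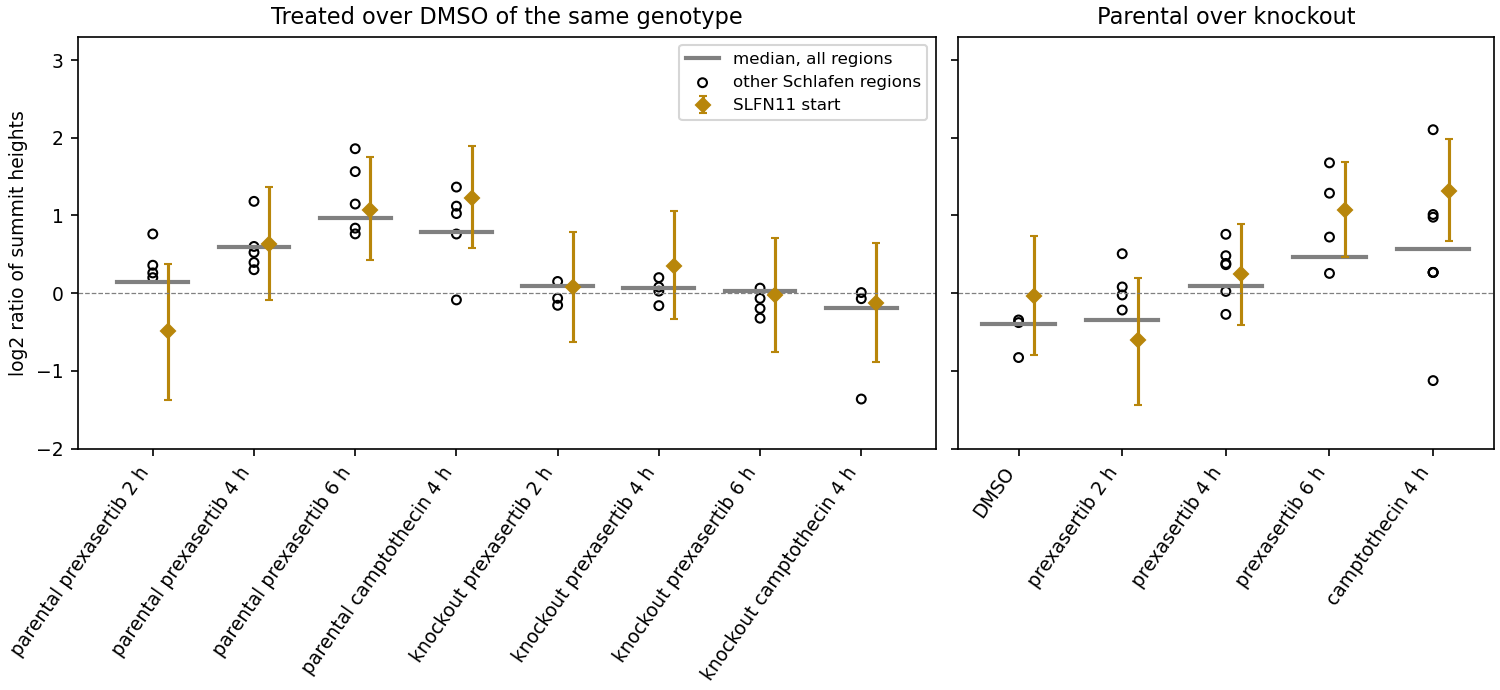
Log2 ratio of summit heights at the Schlafen regions called in both libraries of each comparison, treated over DMSO (left) and parental over knockout (right). Grey lines give the median of all regions called in both libraries, and bars the exact 95% counting intervals for the SLFN11 start. The SLFN11 ratio is 1.08 at 6 h of prexasertib and 1.22 with camptothecin in parental cells, and -1.36 marks the high-edge region in knockout cells with camptothecin.

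Among the 4 regions called in every list, 3 had all 4 treated parental heights above DMSO, the exception being SLFN11 at 2 h, and 63.5% of all such regions had. In knockout cells none of the 4 had all treated heights above DMSO, against 17.5% of all such regions, or all below it, against 14.6%. After 6 h of prexasertib 3 of the 4 had their highest parental value, and 65.6% of all such regions did. Both parental counts were also 3 without the 4 h library. Over the cluster's regions called in both libraries, the median log2 ratio was 0.26, 0.56 and 1.11 along the prexasertib time course and 1.07 with camptothecin in parental cells. The same medians in knockout cells were 0.00, 0.08, -0.07 and -0.10. They rest on 4 to 6 regions each.

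The background around the summits differed between libraries too. The peak caller's local background at the SLFN11 start was 2.14 times the genome-wide one in the parental DMSO library, 2.39, 3.57 and 4.31 times along the prexasertib time course, and 5.40 times after camptothecin. In knockout libraries it lay between 2.84 and 3.55 times. Over all regions called in every list the median went from 2.44 to 2.64, 3.18, 3.62 and 3.53 times in parental cells. It lay between 2.79 and 3.42 times in knockout cells. At the low edge the parental values were 2.94, 3.06, 5.29, 5.76 and 4.96 times. The deposited fold is taken over this local background, and at 4 h, at 6 h and with camptothecin its parental ratios to DMSO at SLFN11 were nearer to 1 than those of the height. At SLFN11 it was 7.12 with DMSO, 4.63, 6.98 and 8.20 along the prexasertib time course, and 7.38 after camptothecin in parental cells. The knockout folds were 5.25, 6.02, 6.21, 5.85 and 5.37. The log2 ratios of the parental folds to DMSO were thus 0.20 at 6 h and 0.05 with camptothecin, well under those of the heights.

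**Figure D5:**
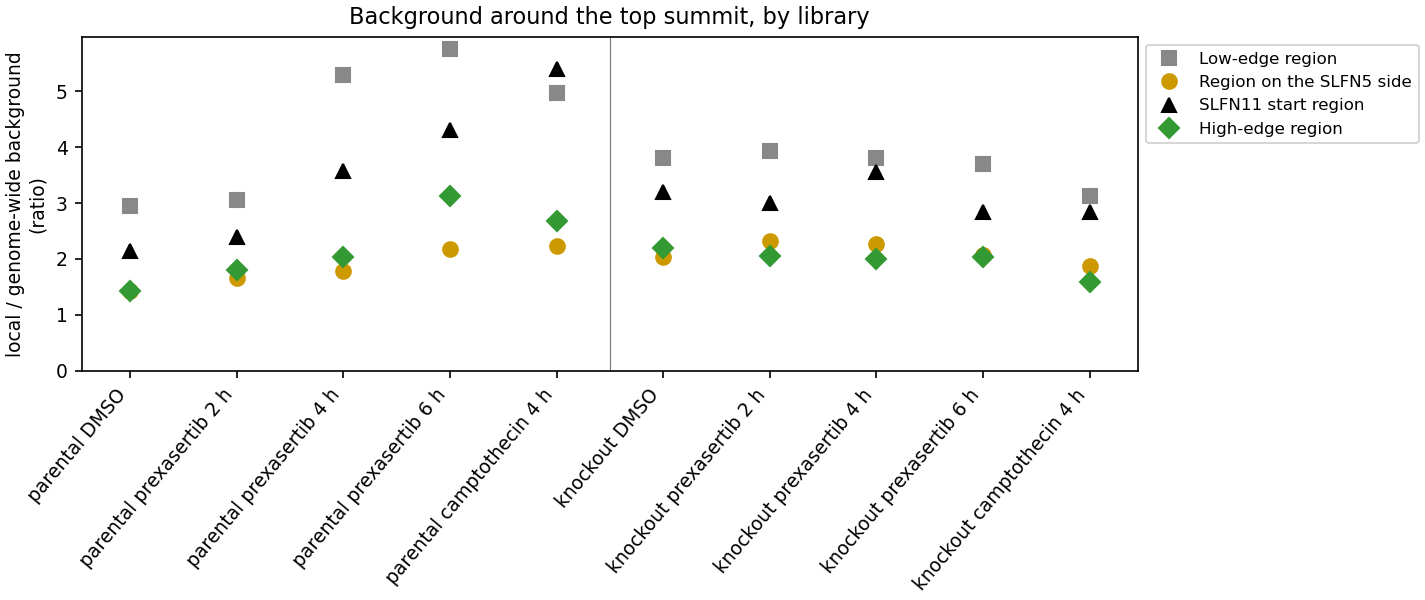
Local background at the highest summit over the genome-wide background of the same library, at the 4 regions called in all 10 lists. At the SLFN11 start it runs from 2.14 to 5.40 in parental libraries and from 2.84 to 3.55 in knockout libraries.

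Above the SLFN11 start, on the side of SLFN12, SLFN13, SLFN12L and SLFN14, 9 weaker regions appeared in some libraries only. The region called most often after treatment without a DMSO call was chr17:33787436-33787876, 86.7 kb above. It was called in 7 of the 8 treated libraries and in neither DMSO library. At least 7 treated calls without a DMSO call were found in 0.589% of all regions. That limit was chosen after the calls of this region were seen, so the share does not measure how unusual the region is. Without the parental 4 h list the region was called in 6 of 7 treated libraries. In knockout cells all 4 treated libraries called it and DMSO did not, as for 1.84% of all regions. No cluster region did so in parental cells, against 2.82% of all regions. Parental pileups were 17 at 4 h, 29 at 6 h and 8 with camptothecin, with no call at 2 h. Their heights were 12.8 (7.47 to 20.5), 19.0 (12.7 to 27.3) and 5.53 (2.39 to 10.9). Knockout pileups were 21, 17 and 23 along the prexasertib time course and 21 after camptothecin, with heights of 10.0, 9.18, 11.5 and 12.1. The parental 6 h summit was the highest of these, and the parental over knockout ratio of 1.65 (0.921 to 2.99) at 6 h has an interval that includes 1. With camptothecin the parental summit was the lower, a ratio of 0.458 (0.176 to 1.08), and this interval also includes 1. Of the 15987 regions called in both camptothecin lists, 0.0813% had a smaller ratio. The parental pileup of 8 is the lowest called in that list, so regions with weaker parental summits are not among these. A region missing from a list fell below the calling threshold and need not be closed. The lowest pileup called in either DMSO list was 9, a height of 5.51 in parental and 5.64 in knockout cells, so a weaker summit there was not detectable.

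The region at chr17:33759536-33760215, 58.8 kb above, was called in 8 lists. Parental pileups were 12, 13, 14, 20 and 18 from DMSO through the time course to camptothecin. In knockout cells it was called at 2 h, at 4 h and with camptothecin, with pileups of 13, 15 and 11. The parental log2 ratios to DMSO, from 0.26 to 0.84, each had an interval that includes 0. Next to it, chr17:33760383-33760818 was called in 3 lists, parental camptothecin, knockout 6 h prexasertib and knockout camptothecin, with a pileup of 14 in each. Camptothecin was thus the condition in which both genotypes called both neighbours.

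The region at chr17:33814237-33814901, 114 kb above, was called in 4 parental lists and 2 knockout lists. Its parental pileups were 12 with DMSO, 12 at 4 h, 19 at 6 h and 10 with camptothecin. Its knockout pileups were 15 and 13 after 2 and 4 h of prexasertib. At chr17:33775248-33775630, 74.5 kb above, pileups were 12 after 6 h of prexasertib in parental cells, and 11 with DMSO and 13 after 4 h in knockout cells. Apart from the pileup of 19 at parental 6 h, these pileups lay between 10 and 15, while the lowest pileup called in any list was between 8 and 10.

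The remaining 7 regions were called in 1 or 2 lists. Below the SLFN11 start, chr17:33673303-33673694, 27.0 kb away, was called in knockout cells with DMSO and after 6 h of prexasertib, with a pileup of 12 in both. No parental list called it. A region called in knockout lists only is seen here 3 times, and in parental lists only 2 times, all in 1 or 2 lists, against 19.9% and 14.0% of all regions. Above the start, chr17:33721415-33721729, 20.7 kb away, was called after camptothecin in both genotypes and in no other list, with a pileup of 9 in each. The region at chr17:33848606-33848945 was called in parental cells after 6 h of prexasertib and in knockout cells after 2 h, with pileups of 8 and 16. The others were called once, with pileups of 9, 9 and 10 except for 29 at chr17:33571314-33571672 in knockout cells after 2 h of prexasertib, next to the low-edge region.

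Gains and losses are counted over the 16 regions, beside the share of all 35505 regions that were gained or lost. From DMSO to treatment in parental cells, 0, 1 and 4 regions were gained along the prexasertib time course, against 7.14%, 11.2% and 24.1% of all regions. After camptothecin 4 were gained, against 20.0%. In knockout cells 5, 3 and 3 were gained along the prexasertib time course, against 16.0%, 11.0% and 14.8%, and 4 after camptothecin, against 6.94%. In parental cells 1 region was lost at 2 h, against 7.85%, and none in the other 3 parental comparisons, against 5.94%, 4.02% and 3.82%. In knockout cells 2, 1 and 1 were lost after prexasertib, against 5.28%, 7.61% and 6.32%, and 2 after camptothecin, against 10.8%. The 8 comparisons share 1 DMSO library per genotype.

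Between genotypes, 2 regions were called only in the parental and 2 only in the knockout library with DMSO, against 4.13% and 16.1% of all regions. At 2 h of prexasertib the counts were 0 and 4 (2.43% and 25.9%), at 4 h 0 and 1 (5.03% and 15.2%) and at 6 h 5 and 3 (13.2% and 13.5%). With camptothecin they were 2 and 0 (15.2% and 7.20%). None of the 16 regions was called in at least 4 lists of one genotype and at most 1 of the other, a pattern held by 0.223% of all regions for parental and 2.79% for knockout cells. With only 16 regions, finding none does not set the cluster apart from these shares.

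Outside the window, the 5 regions whose heights over the 10 libraries were most like those of the SLFN11 start lay on other chromosomes. By Pearson correlation of log2 heights they were chr6:26033289-26034236 (0.994), chr6:33538642-33539677 (0.982), chr12:21654188-21655274 (0.979), chr15:40330853-40331909 (0.979) and chr12:58239510-58241393 (0.977). Within the cluster the low-edge region had a correlation of 0.884 with SLFN11, the high-edge region 0.781 and the region 60.0 kb below 0.333. The median over the other regions called in every list was 0.732. The libraries share depth and treatment across all regions, and these correlations are a description over 10 libraries.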

How the data were processed

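ATAC-seq was measured in 10 libraries, 1 per genotype and treatment. The submitters' processing notes name MACS2 2.1.2, BWA 0.7.17, Picard 2.9.2, SAMtools 1.8, Trimmomatic 0.39, Trim Galore 0.6.2 and the build hg19, without their roles. The deposited peak lists have the columns of MACS2, 1 list per library. Not given in the sources used here: parameters, read shifting and duplicate removal. The deposited lists give 1 line per summit with its position, the score (10 times the −log10 q-value as a whole number), the fold (a ratio to the local background), the −log10 p-value and the −log10 q-value. The lowest deposited −log10 q was 2.00. Depth is given as no read count.

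Lines with the same start and end were counted as 1 peak. Peaks on chromosomes 1 to 22 and X were merged over all lists where they overlapped by at least 1 bp. The fold was read as (pileup + 1)/(background + 1) and the p-value as its Poisson tail, and both were solved for a whole pileup that matched the deposited −log10 p within 0.001. This recovered 99.5% to 99.7% of the summits per list and all 108 of the cluster. The lowest background of a list, 1.33 to 2.10, is its genome-wide background and the measure of relative depth. The highest summit of a region stands for it, and a maximum is biased upward. Intervals are exact (Poisson for a pileup, Clopper-Pearson for a ratio of pileups) at 95% and cover counting error only. No p-value was computed, since each group is 1 library. The steps were tested on simulated data with Python 3.11.15, NumPy 2.4.6, pandas 2.3.3 and SciPy 1.17.1.

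The cluster and the lists of regions were chosen with earlier results of these data known. Values in every library are given for the region at the SLFN11 start, regions called in all 10 lists, regions called in at least 4 lists of one genotype and at most 1 of the other, and regions called in all 4 treated lists of a genotype but not with DMSO. Regions outside this rule that are named were chosen after their values were seen. No hg19 annotation was used, so the starts of the other Schlafen genes, of SLFN11 partners and regulators and of T cell markers were not placed on the peaks, and the labelled cell type was not checked. RefSeq tables on GRCh38.p14 gave gene names and order (6 of 6 genes matched) and promoter sequence (3 of 6). Alternatives were a −log10 q of at least 10, equal list lengths, 50% reciprocal overlap, the deposited fold, undivided pileups and heights relative to the median region.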

Additional observations from a re-analysis of the deposited data

Results flagged for a closer look

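At the high-edge region, chr17:33894695-33895630, camptothecin went with height ratios of opposite sign in the genotypes, each with a counting interval that leaves out 0. The log2 height ratio to DMSO was 1.12 in parental cells, with an interval of 0.41 to 1.86. It was -1.36 in knockout cells, with an interval of -2.38 to -0.42. The difference was 2.48. This was the only case found in a search of the 4 cluster regions called in all lists, at each of the 4 treatments. The share of all regions that meet the same rule was not computed. With 1 library per group this difference between genotypes was not tested. The median over all regions called in both libraries was 0.79 in parental and -0.20 in knockout cells.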

How the results depend on the processing

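With a −log10 q of at least 10, the regions called in the cluster numbered 2, 3, 3, 6 and 4 in parental libraries from DMSO through the prexasertib time course to camptothecin, and 4, 5, 4, 5 and 4 in knockout libraries in the same order. With equal list lengths they numbered 6, 5, 7, 7 and 5 in parental libraries and 4, 5, 5, 5 and 5 in knockout libraries. By the deposited fold the cluster's median log2 ratio to DMSO in parental cells was 0.14, 0.65 and 0.29 at 4 h, 6 h and with camptothecin, and that of SLFN11 was 0.20 at 6 h and 0.052 with camptothecin. Parental over knockout, it was 0.041 with DMSO, where the sign turned, 0.49 at 6 h and 0.27 with camptothecin for the cluster, and 0.46 with camptothecin for SLFN11. Without division by the background the medians were 0.40 for knockout 2 h over DMSO, and -0.53, -0.12 and 0.68 for parental over knockout at 2, 4 and 6 h, so that the sign at 4 h turned. The parental 4 h library had the lowest background of all. With a −log10 q of at least 10 the cluster median was 1.47 for parental 6 h over DMSO and 1.01 for parental over knockout with camptothecin. At that threshold the regions called in both libraries numbered 1 to 3 in 9 of the 13 comparisons. Against the median region the SLFN11 ratio was -0.023 at parental 6 h, where the sign turned, 0.31 with parental camptothecin over DMSO and 0.65 over knockout. It also turned sign at parental 4 h over DMSO (-0.0098) and for parental over knockout with DMSO (0.42). In knockout cells it turned at 2 h (-0.039) and with camptothecin (0.074) over DMSO. For parental over knockout at 6 h it was 0.48. By the fold, SLFN11 turned sign at parental 4 h over DMSO (-0.029) and for parental over knockout with DMSO (0.44). By undivided pileups it turned for parental over knockout at 4 h (-0.24). Some other ratios also turned sign and are not listed. The summed width of the knockout camptothecin peaks at SLFN11 was 965 bp. The causes of these differences were not tested, beyond what each setting changes by construction. Leaving out the parental 4 h list, an alternative chosen after seeing the data, kept each count given for it within 1.5 times. The labels give no replicate numbers to pair, and no result comes from a test. Parental and knockout libraries were compared condition by condition, but a fit that pairs the genotypes by condition was not run. The lowest pileup called was 8 to 10 in each list, and weaker summits were not detectable at this depth.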
